A study of Homo sapiens with 6 samples.

Results

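The cytosolic ribosomal protein genes encode the proteins of the 60S and 40S subunits, which together make the ribosome of the cytoplasm. Members were chosen by symbol: RPL or RPS with a number and, where present, an A, L, X or Y1 ending, and the P-stalk and RPSA forms. Ribosomal protein S6 kinases and pseudogenes were left out, and only probe sets annotated to a single symbol were used. This gave 58 genes, read by 119 probe sets, of 19775 genes with such a probe set on the array. Each gene was read from its brightest probe set. In all, 57 of the 58 passed the filter on low signal and stood among the 12151 genes tested, 35 of the large and 22 of the small subunit. RPL3L, a muscle-restricted paralog of RPL3, lay below the filter, with signals of 7.79, 11.5 and 2.10 on the TAT-2 arrays, against 1.53, 7.20 and 2.02 on the vector arrays. A further 15 ribosomal protein symbols occurred only on probe sets annotated to several symbols. RPLP0 and RPSA, which have no probe set of a single symbol here, were not analysed here.

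RNA came from HSC-3, an established cell line of human tongue squamous cell carcinoma. The series compared HSC-3 cells that overexpress trypsin-2, titled TAT-2, with HSC-3 cells that carry a control vector. Trypsin-2 is a secreted serine protease encoded by PRSS2. There were 3 Affymetrix arrays per group, all from cells cultured for 48 h, with 2 µg of total RNA labelled per array. Both groups were cultured in serum-containing medium with hydrocortisone, and the cells were detached with trypsin before RNA was extracted. The promoter of the construct and the number of clones are not given in the sources used here. Nothing in the labels says that replicates were separate cultures, so p-values measure the spread between these arrays, which may be technical. Because total RNA was measured in bulk, fewer cells of a type and less RNA per cell cannot be told apart.

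Ribosomes translate mRNA into protein: the small subunit reads the codons, and the large subunit joins the amino acids. The proteins are made in near-equal numbers, imported into the nucleolus and assembled there with ribosomal RNA. Their mRNAs are among the most abundant of growing cells. Most of them start with a cytosine followed by a run of pyrimidines, the 5′ terminal oligopyrimidine (TOP) motif, through which mTORC1 and LARP1 control their translation without needing a change in mRNA level.

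RefSeq gave promoters on GRCh38.p14 for 50 of the 58 genes. The stretches below are the 15 bases before and the 15 bases from the annotated start, 5′ to 3′ on the strand of the gene. They show the start shared by most members, its absence in some paralogs and in RPS4X, and the members of largest difference in each direction. Capitals mark the unbroken run of C and T that begins at the annotated start.
RPS6, chr9:19380222-19380251, minus strand: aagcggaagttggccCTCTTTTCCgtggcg
RPLP1, chr15:69452803-69452832, plus strand: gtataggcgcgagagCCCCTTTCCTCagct
RPS21, chr20:62387088-62387117, plus strand: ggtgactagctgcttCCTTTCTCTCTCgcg
RPL11, chr1:23691791-23691820, plus strand: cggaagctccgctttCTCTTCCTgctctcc
RPL24, chr3:101686704-101686733, minus strand: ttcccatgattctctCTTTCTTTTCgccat
RPL22, chr1:6199581-6199610, minus strand: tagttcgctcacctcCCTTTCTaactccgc
RPL27A, chr11:8682777-8682806, plus strand: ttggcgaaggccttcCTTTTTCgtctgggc
RPLP2, chr11:809952-809981, plus strand: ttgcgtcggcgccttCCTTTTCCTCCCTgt
RPL18, chr19:48619164-48619193, minus strand: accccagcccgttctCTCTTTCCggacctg
RPS27, chr1:153990747-153990776, plus strand: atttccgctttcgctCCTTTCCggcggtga
RPS27L, chr15:63157463-63157492, minus strand: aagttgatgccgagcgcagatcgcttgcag
RPL36A, chrX:101390996-101391025, plus strand: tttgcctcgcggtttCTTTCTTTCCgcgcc
RPL36AL, chr14:49620612-49620641, minus strand: ctgtttcttccctttCCTgttaggcgagag
RPS4X, chrX:72277234-72277263, minus strand: gcagtctccagccccaatttctacgcgcac
RPS4Y1, chrY:2841587-2841616, plus strand: ggaaaagaacagattCTCTTCCgtcgcaga
RPL10L, chr14:46651767-46651796, minus strand: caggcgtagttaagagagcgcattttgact

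A C at an annotated start, followed on the gene's strand by at least 4 bases that were each C or T, was found in 35 of the 50 members. It was found in 34 of 46 members other than paralogs and in 1 of 4 paralogs, so some core members lacked it too. Among all 15842 protein-coding genes with a promoter in the RefSeq table, 988 (6.24%) had such a start. RPS27 had it and its paralog RPS27L did not. RPL36A had it, while in RPL36AL the run ended after 3 bases. RPS4Y1 had it, and the annotated start of RPS4X did not. For 6 members the table held several starts, and RPL11 is shown at the one with the run. The letters CCGGAAG or, on the other strand, CTTCCGG, the core bound by the ETS factor GABP, occurred in 18 members (36.0%) and in 16.5% of all protein-coding genes. This window ran from 250 bases before to 50 bases after the start, where the motif can overlap the pyrimidine run. TATAAA, the TATA box, searched on both strands, occurred in 4 members (8.0%) and in 12.4% of all. A match describes letters and is no evidence of binding.

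The labels were checked against the introduced gene. The PRSS2 probe set 205402_x_at gave 20.4, 13.8 and 14.6 on the TAT-2 arrays, against 19.6, 80.8 and 83.2 on the vector arrays (exact two-sided permutation test, p = 0.2). The other, 216470_x_at, gave 19.9, 17.9 and 19.5 against 22.6, 38.0 and 54.5 (exact permutation p = 0.1, the smallest that 3 against 3 allow). The signal was thus not higher on the arrays labelled TAT-2, and it was higher on vector arrays 2 and 3. Whether these probe sets, which share sequence with other trypsinogens, can read the introduced transcript was not tested. Every direction given here therefore rests on the labels, and TAT-2 and vector mean the arrays so labelled. Of 7 squamous markers, KRT5, KRT14 and SFN were bright, KRT14 giving 7649, 6325 and 6162 on TAT-2 and 7662, 5392 and 4554 on vector arrays. DSG3 (152 to 197), DSC3 (142 to 215), PKP1 (49.1 to 131) and KRT16 (11.4 to 50.5) were far dimmer. Of 6 fibroblast markers, COL1A1 (67.8 to 101) and DCN (16.8 to 31.6) passed the filter; COL1A2 (1.68 to 19.4) did not, and COL3A1, LUM and PDGFRB were at 9.13 or below on every array. Of 4 leukocyte markers on the array only CD14 (9.15 to 79.5) passed the filter. CD3E lay between 10.2 and 16.3, LYZ at 11.8 or below and PTPRC at 8.17 or below.

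The ribosomal protein genes differed little between TAT-2 and vector. None of the 57 was called in either direction (limma, adjusted p under 0.05), where 0.0576% of all genes were called. None was called with the replicate number as a block either, where 6.96% of all genes were. At an unadjusted p under 0.05, limma gave 2 members, RPL11 and RPS27L, against a background of 9.38%. With the block it gave 4, RPL27A and RPS21 joining these, against 22.3%. The median log2 fold change, TAT-2 over vector, was -0.017 over the members and -0.0025 over all tested genes. Members ranged from -0.19 (RPS21) to 0.21 (RPS27L, a 1.16-fold difference), while all genes ranged from -1.83 to 2.00. There were 22 members with a higher and 35 with a lower mean on the TAT-2 arrays.

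The scatter among members was narrow. Their quartiles were -0.040 and 0.023 on the log2 scale, against -0.13 and 0.13 for all genes. A difference beyond 0.1 in either direction was measured for 10 members (17.5%), for 58.6% of all genes, and for 40.6% of the 466 other genes whose mean reached log2 11, a signal of 2032. The median standard error was 0.080 for members, 0.16 for all genes and 0.090 for the other bright genes. The 95% interval of the limma estimate lay within 1.25-fold in both directions for 47 members (82.5%), against 11.6% of all genes and 54.9% of the other bright genes. With the block it did so for 50 members (87.7%), against 34.8% of all genes and 79.4% of the other bright genes. These standard errors and intervals hold for the values as deposited and a variance that follows an intensity trend. Without the trend, or with array medians centred, limma gave 0 members at an unadjusted p under 0.05 in place of 2. With quantile normalisation it gave 4. Interval counts under those settings are not given here. Of the 57 members, 51 lay at or above log2 11, and 6 of these (11.8%) differed by more than 0.1. The median level of these 51 was 12.7 to 12.9 on the arrays, against 11.5 to 11.6 for the other bright genes. The comparison with other bright genes was thus not matched for level. Signals of members reached 10719.8 on an array scale whose highest value was 12091, and whether probes near the top were saturated was not tested.

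**Figure D1:**
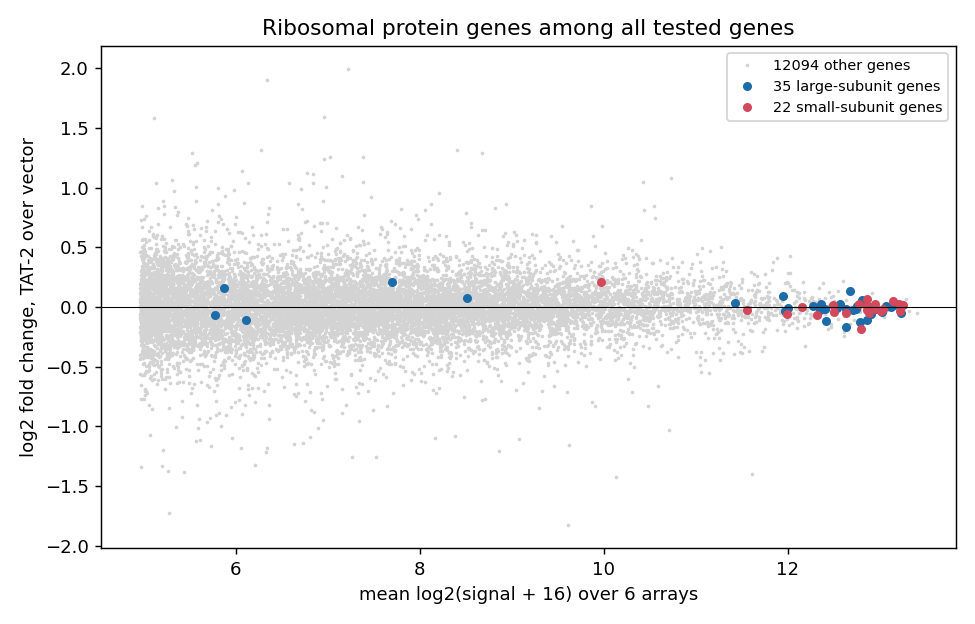
Log2 fold change, TAT-2 over vector, of each tested gene (y axis) against its mean log2(signal + 16) over the 6 arrays (x axis), with the 35 large-subunit and 22 small-subunit genes coloured over the 12094 others in grey. Members lie close to 0, between -0.19 and 0.21, and 51 of them lie at log2 11 or more.

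Among the 35 large-subunit genes the median was -0.0167, with 13 higher and 22 lower. RPL3 and RPL8, which lie near the peptidyl transferase centre, gave log2 fold changes of 0.0086 and 0.011. RPLP1, which with RPLP2 forms the acidic stalk that recruits elongation factors, had signals of 7429, 6369 and 6620.5 on TAT-2 arrays, against 7730.3, 6635 and 6386 on vector arrays. The groups overlapped, and its log2 fold change was -0.021 ± 0.094 (SE; limma adjusted p = 0.988). RPL12, at the base of the stalk, had a difference of 0.023, and RPL10A, of the mobile L1 stalk on the opposite side, one of -0.020. At the exit of the tunnel through which the nascent chain leaves, RPL23A, RPL31 and RPL35 had differences of -0.034, 0.061 and -0.027. RPL39, which lines the tunnel, had one of 0.013. RPL24 and RPL41, which bridge to the small subunit, had differences of -0.12 and -0.032. RPL38, needed in mouse for translation of a subset of Hox mRNAs, had one of -0.0076. The largest differences and the paralogs are described further on. The rest of the large-subunit members were RPL7, RPL9, RPL14, RPL19, RPL27, RPL29, RPL30, RPL32, RPL34, RPL35A, RPL36, RPL37 and RPL37A. Their log2 fold changes lay between -0.061 (RPL9) and 0.033 (RPL36). RPL36 had the widest interval among the bright members, -0.44 to 0.51. Its signals were 3506, 2366 and 2527 on TAT-2 arrays, against 3679, 2308 and 2302 on vector arrays, so both arrays numbered 1 were high.

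Among the 22 small-subunit genes the median was -0.0176, with 9 higher and 13 lower. RPS6, the substrate of the S6 kinases downstream of mTORC1, had signals of 9605, 8857 and 9171 on TAT-2 arrays, against 9645, 8732 and 8325 on vector arrays. The groups overlapped, and the log2 fold change was 0.051 ± 0.074 (SE; limma adjusted p = 0.954). RPS23 and RPS9, which bear on the accuracy of decoding, had differences of 0.013 and -0.060. RPS3 and RPS10, at the channel where mRNA enters, had differences of -0.050 and 0.028. RPS19, the gene most often mutated in Diamond-Blackfan anaemia, had 7617, 7266 and 7918 on TAT-2 arrays, against 7802, 7049 and 6889 on vector arrays. These overlapped, with a log2 fold change of 0.070 ± 0.073 (SE). RPS24, mutated in the same disease, had one of -0.026. RPS14, whose loss underlies the anaemia of the 5q- syndrome, had one of 0.025. RPS25, needed for initiation at some viral internal ribosome entry sites, had signals of 4397, 4969 and 5534 on TAT-2 arrays, against 5195, 5108 and 5289 on vector arrays. These overlapped, with a log2 fold change of -0.071 ± 0.090 (SE). RPS21, the paralogs RPS27L and RPS4Y1, and RPS4X are described further on. The rest of the small-subunit members, RPS7, RPS12, RPS15, RPS15A, RPS16, RPS18, RPS27, RPS28 and RPS29, lay between -0.052 (RPS18) and 0.028 (RPS12).

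**Figure D2:**
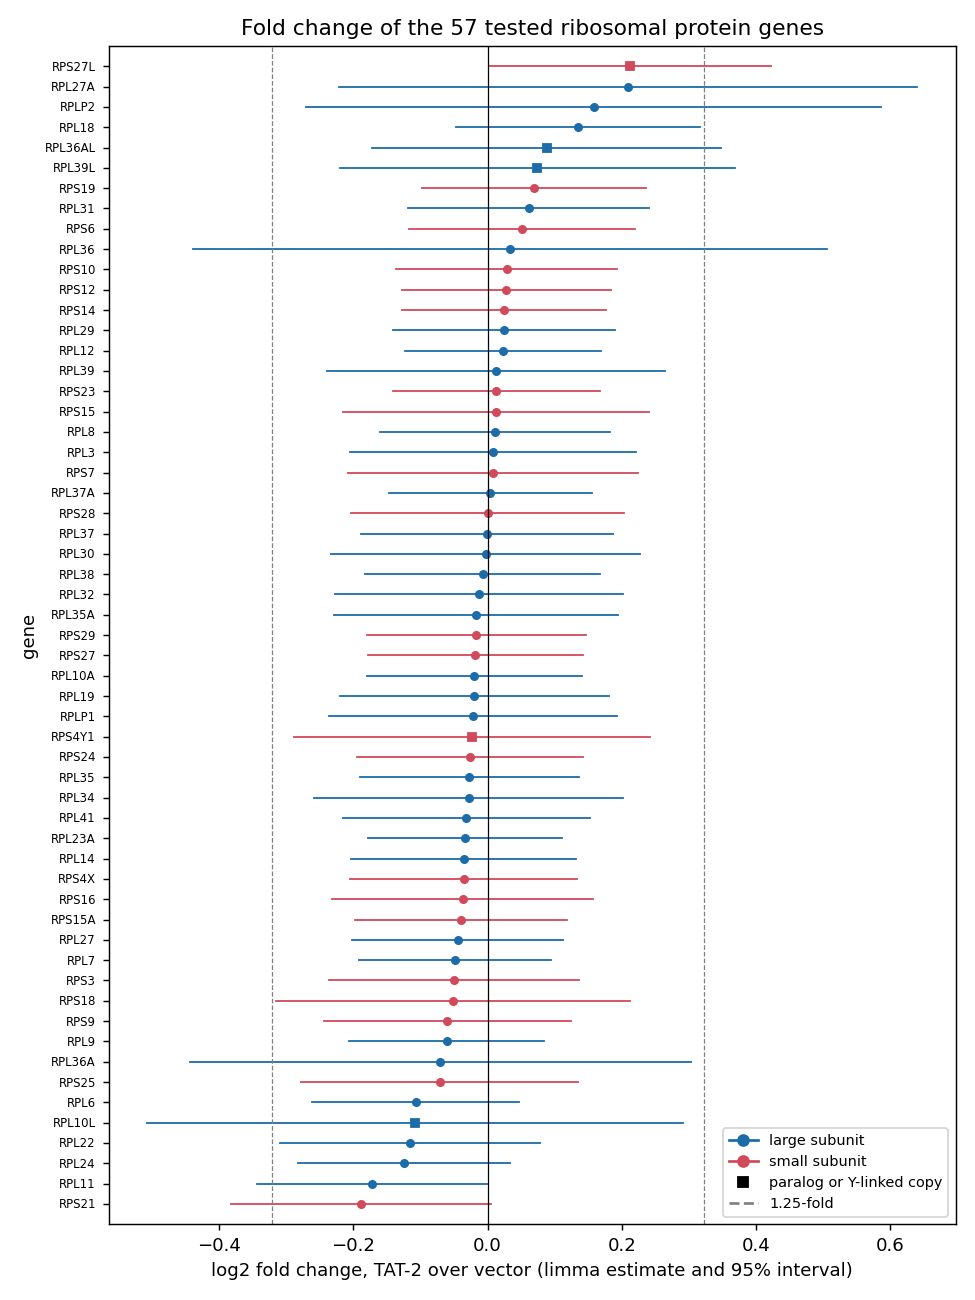
Log2 fold change, TAT-2 over vector, of each of the 57 tested genes as the limma estimate (symbol) with its 95% interval (line), large subunit in blue and small subunit in red, squares for paralogs and the Y-linked copy. Dashed lines mark 1.25-fold, and 47 of the 57 intervals lie between them.

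The brightest probe sets of the class showed how the arrays differed. RPS16, whose tail reaches the tRNA in the P site, had signals of 9646, 8754 and 9709 on TAT-2 arrays, against 10719.8, 9262 and 8925 on vector arrays. RPS23 had 9558, 9541 and 10217 against 10249.9, 9673 and 9154. RPL7, which contacts 5S ribosomal RNA, had 9227, 9148 and 9859.9 against 10092, 9556 and 9544. In all 3 genes vector array 1 was the highest, the groups overlapped, and the log2 fold changes were -0.037 ± 0.085, 0.013 ± 0.068 and -0.048 ± 0.062 (SE). RPS10 had 9726, 9301 and 9517 on TAT-2 arrays, against 10199, 8865 and 8976 on vector arrays. RPL39 had 9550.3, 8274 and 9709 against 10663, 8506 and 8232. Both were again highest on vector array 1, with log2 fold changes of 0.028 ± 0.072 and 0.013 ± 0.11 (SE). RPS18, at the head of the small subunit, also stood highest there, with 7561, 7271 and 7436 on TAT-2 arrays, against 9397, 7098 and 6831 on vector arrays. Within its numbers the log2 differences were -0.31, 0.035 and 0.12.

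The largest negative difference was that of RPS21, a small protein of the 40S subunit. Its signals were 6348, 6435 and 7215 on TAT-2 arrays, against 8319.98, 7404 and 7098 on vector arrays. Vector array 1 was the highest and TAT-2 array 3 lay above vector array 3, so the groups overlapped. The log2 fold change was -0.19 ± 0.085 (SE; limma adjusted p = 0.642, and 0.252 with the replicate block). RPL11 binds 5S ribosomal RNA together with RPL5 and, when free of the ribosome, inhibits MDM2. It gave 6052, 5711 and 6085 on TAT-2 arrays, against 7239, 6661 and 6249 on vector arrays. Every vector array lay above every TAT-2 array, by little for vector array 3. The log2 fold change was -0.17 ± 0.075 (SE; limma adjusted p = 0.635, and 0.222 with the block). Read by brightest probe sets, RPL11 was the only member whose TAT-2 arrays all lay below the vector arrays, where 7.83% of all genes did so. Among further tested probe sets, 212042_x_at of RPL7 and the dim 241241_at of RPS14 did so too.

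RPL24 had signals of 6375, 6719 and 7158 on TAT-2 arrays, against 7578, 7365 and 7127 on vector arrays, overlapping at replicate 3. RPL22, an RNA-binding protein that the ribosome can do without, had 4873, 5022 and 5827 against 5899, 5676 and 5421. RPL6 had 7062, 7042 and 7393 against 8212, 7379.9 and 7584. In each of these genes the highest array was vector 1, and 1 TAT-2 array crossed into the vector range. Their log2 fold changes were -0.12 ± 0.069, -0.12 ± 0.085 and -0.11 ± 0.067 (SE, n = 3 each), with limma adjusted p of 0.762, 0.865 and 0.809.

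On the positive side, RPL18, a large-subunit protein, gave 6506, 6668 and 7364 on TAT-2 arrays, against 6433, 6513 and 5761 on vector arrays. TAT-2 array 3 stood highest and vector array 3 lowest, with the others close together. The log2 fold change was 0.13 ± 0.080 (SE; limma adjusted p = 0.789). RPL27A and RPLP2 were read from dim probe sets, because their brighter ones also carry the symbol of a small nucleolar RNA. RPL27A gave 163, 231 and 234 on TAT-2 arrays, against 140.5, 184 and 213 on vector arrays, with a log2 fold change of 0.21 ± 0.19 (SE; limma adjusted p = 0.910). RPLP2 gave 43.4, 39.2 and 56.3 against 36.2, 32.1 and 51.9, with 0.16 ± 0.19 (SE; limma adjusted p = 0.942). In both genes the TAT-2 array was the higher of each replicate number while the groups overlapped.

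Paralogs can replace a core protein in some ribosomes or cell types. RPS27L, a p53-induced paralog of RPS27, had signals of 987, 1115 and 1093 on TAT-2 arrays, against 937, 870.4 and 942 on vector arrays. All TAT-2 arrays lay above all vector arrays. Read by brightest probe sets, it was the only member of which this held, where 7.87% of all genes did so. Among further tested probe sets, it held for 227722_at of RPS23. The log2 fold change was 0.21 ± 0.092 (SE; limma adjusted p = 0.627, and 0.121 with the block). Both of its further tested probe sets were dim, and their log2 fold changes were 0.12 and -0.047. RPS27 itself had 7873, 7617 and 8228 against 8559, 7848 and 7629.6, overlapping, with a log2 fold change of -0.018 ± 0.070 (SE). The difference between RPS27L and RPS27 was not tested.

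RPL36AL, a paralog of RPL36A, had signals of 3493, 4109 and 4617 on TAT-2 arrays, against 3466, 3882 and 4099.7 on vector arrays. It was the higher on TAT-2 within each number, by 0.01, 0.08 and 0.17 on the log2 scale, while the groups overlapped. RPL36A, read from a dim probe set, had 33.0, 35.7 and 44.5 against 33.4, 43.1 and 44.7. RPL39L, a paralog of RPL39 most abundant in testis and present in many tumour lines, had 419, 317 and 350.2 against 359, 348 and 317. RPL10L, an intronless paralog of RPL10 that serves in male germ cells, had 51.9, 52.4 and 47.1 against 55.8, 42.7 and 71.1. Their groups overlapped, and the log2 fold changes were 0.088 ± 0.11 for RPL36AL, -0.070 ± 0.16 for RPL36A, 0.074 ± 0.13 for RPL39L and -0.11 ± 0.17 for RPL10L (SE). RPS4X and RPS4Y1 encode the X-linked and Y-linked forms of the same protein. RPS4Y1 had 2522, 3194 and 3271 on TAT-2 arrays, against 2749, 3175 and 3169 on vector arrays. RPS4X had 8040.3, 8065 and 8416 against 9182, 8003 and 7996, and the log2 fold changes were -0.023 ± 0.12 and -0.035 ± 0.074 (SE). Probes of such close copies can read one another's transcripts, and 13 of the 57 brightest probe sets carried the suffix _x_at and 30 the suffix _s_at, which mark shared sequence.

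Further probe sets of the same genes gave further readings. Of 50 tested, belonging to 28 genes, none was called without the block and 4 were with it, where 5.21% of all tested probe sets were called. Without an intensity trend the block called 0 of the 50, and with array medians centred it called 1. Their median log2 fold change was 0.006, with 27 higher and 23 lower, and 31 of the 50 had the sign of their gene's brightest probe set. All 5 probe sets of RPL22 had a lower mean on TAT-2 arrays, and 2 of them were among the 4 called. RPL22 probe set 214042_s_at gave 1066, 1376 and 1487 on TAT-2 arrays, against 1475, 1685 and 1717 on vector arrays, a log2 fold change of -0.32 (limma adjusted p with block = 0.0222). Probe set 221726_at gave 829.98, 1042 and 1023 against 1005, 1269 and 1194, or -0.26 (limma adjusted p with block = 0.0381). Within every number the TAT-2 array was the lower, while the groups overlapped.

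RPS21 probe set 214097_at gave 311, 546 and 663 on TAT-2 arrays, against 529, 787 and 828 on vector arrays. The log2 fold change was -0.52 ± 0.27 (SE; limma adjusted p with block = 0.00511), where the brightest RPS21 probe set gave -0.19. RPL31 probe set 221593_s_at gave 165, 220.5 and 249 on TAT-2 arrays, against 122, 179 and 189 on vector arrays, a log2 fold change of 0.35 (limma adjusted p with block = 0.0440). The brightest RPL31 probe set gave 6876, 7055 and 7927 against 7403, 6844 and 6684, or 0.061. What part of the transcript each reads was not examined here. The 64 probe sets whose several symbols include a ribosomal protein, 62 of them tested, had no call with or without the block. Their log2 fold changes had a median of -0.018 and ran from -0.19 to 0.35.

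**Figure D3:**
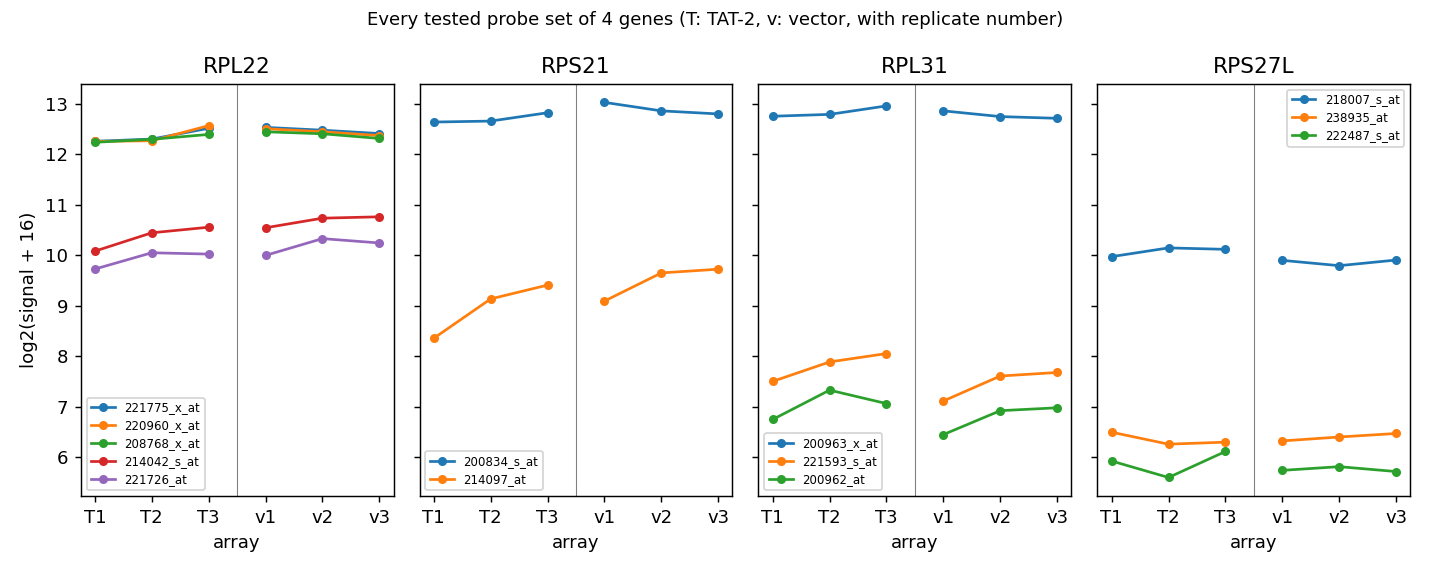
Log2(signal + 16) of each tested probe set of RPL22, RPS21, RPL31 and RPS27L on the TAT-2 arrays (T1 to T3) and the vector arrays (v1 to v3), 1 line per probe set and group. All 5 RPL22 probe sets have a lower TAT-2 mean, and the dimmer RPS21 probe set has a log2 fold change of -0.52 where the brighter one has -0.19.

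Differences within a replicate number ran in opposite directions. The median over the 57 members, TAT-2 minus vector, was -0.11 for number 1, -0.021 for number 2 and 0.10 for number 3. At number 1, 51 members were lower on the TAT-2 array, at number 2 there were 33, and at number 3 there were 4. Only 5 members were higher on TAT-2 in all 3 numbers (8.77%), namely RPL18, RPL27A, RPL36AL, RPLP2 and RPS27L, where 21.4% of all genes were. The 3 lower in all numbers (5.26%) were RPL6, RPL11 and RPL36A, where 21.1% of all genes were. Vector array 1 was the highest of the 6 arrays for 36 members (63.2%), for 20.5% of all genes and for 26.8% of the other bright genes.

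The 51 bright members were mostly above their own mean on vector array 1 (44) and TAT-2 array 3 (39), and mostly below it on TAT-2 array 2 and vector array 3 (7 and 8 above). On TAT-2 array 1 they were split, with 24 above, and on vector array 2 there were 16. Their median deviation from each gene's own mean was -0.014, -0.047 and 0.035 on the TAT-2 arrays, against 0.11, -0.019 and -0.060 on the vector arrays. The other 466 bright genes shared the order of the within-number medians, with -0.063, -0.033 and 0.10 for numbers 1, 2 and 3, where the bright members had -0.12, -0.022 and 0.10. Quantile normalisation left medians of -0.0063, 0.0019 and 0.0028 in the members. Centring array medians widened them to -0.15, -0.095 and 0.23. The size of the within-number medians, and the sign of that of number 2, thus depended on the scaling. For ACTB, the 3′ probe set over the 5′ probe set, a measure of RNA integrity and labelling, gave a log2 ratio of 0.21, 0.46 and 0.57 on the TAT-2 arrays, against 0.25, 0.50 and 0.59 on the vector arrays. Its part in the result was not tested.

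**Figure D4:**
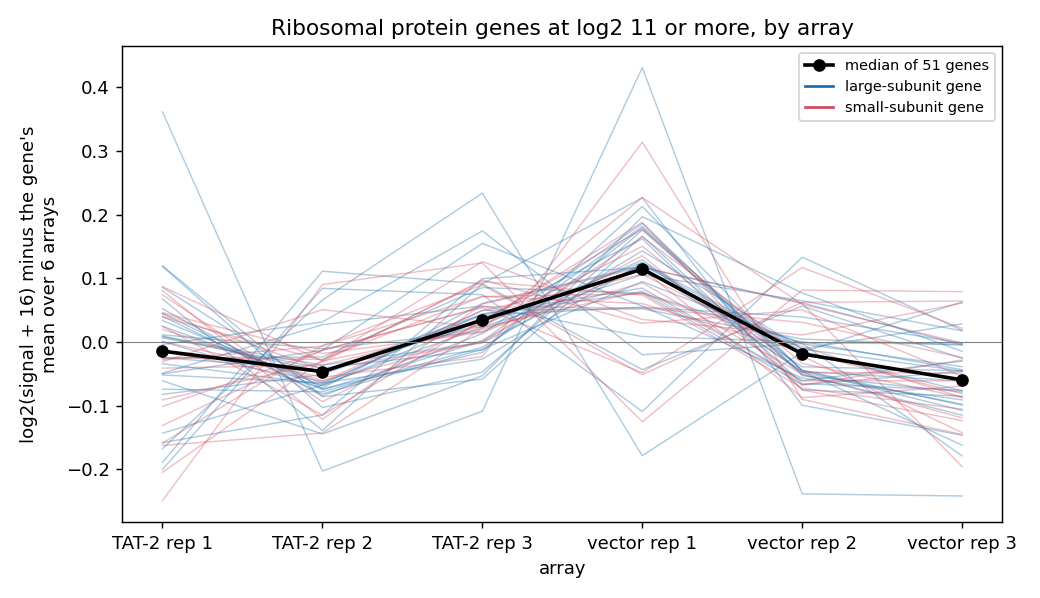
Deviation of log2(signal + 16) from the gene's mean over the 6 arrays (y axis), on each array (x axis), for the 51 ribosomal protein genes at log2 11 or more, large subunit in blue, small subunit in red and the median in black. The median is highest on vector array 1, at 0.11, and lowest on vector array 3, at -0.060.

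**Figure D5:**
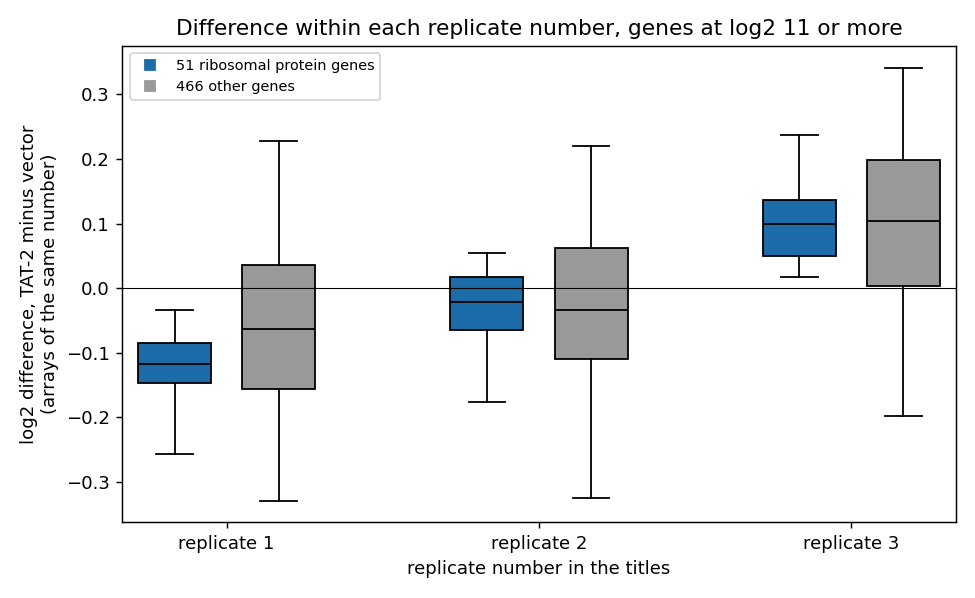
Log2 difference, TAT-2 minus vector, between arrays of the same replicate number, for the 51 ribosomal protein genes (blue) and the 466 other genes (grey) at log2 11 or more. Boxes span the quartiles with the median as a line, whiskers run from percentile 5 to 95, and the median of the members is -0.12, -0.022 and 0.10 at numbers 1, 2 and 3.

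Genes that work beside the ribosomal proteins were read from the same fit. No gene of any of these lists was called without the block. With the block, 3.50% of all genes were called higher and 3.46% lower. The block without an intensity trend of the variance called 0 genes in these lists and 0 of all genes. With the block and array medians centred, 1 gene each of the polymerase I, processing and large-subunit assembly lists was called, and 0 of the initiation factors and mitochondrial ribosomal proteins. This setting called 396 of all genes higher and 347 lower. The block with quantile normalisation called 499 of all genes higher and 468 lower. Of the lists it called 9 mitochondrial ribosomal proteins, 3 TOP genes, 3 processing genes, 2 initiation factors and 2 polymerase I genes. It also called 1 gene each of large-subunit assembly, mTORC1 and the ribosomal proteins outside the rule. Calls below are from the values as deposited. Of 4 ribosomal proteins outside the symbol rule, none was called. RPL22L1, the paralog of RPL22, gave 1759, 1561 and 1831 on TAT-2 arrays, against 1573, 1499 and 1385 on vector arrays. Only TAT-2 array 2 lay within the vector range, and the log2 fold change was 0.21 ± 0.095 (SE; limma adjusted p = 0.662, and 0.155 with the block). FAU, which encodes the small-subunit protein eS30 fused to a ubiquitin-like protein, had one of -0.15 ± 0.079 (SE; limma adjusted p = 0.732).

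Of 20 elongation factors and other genes with TOP mRNAs, 10 were higher and 10 lower with a median of 0.009, and none was called with the block. EIF3K, a subunit of initiation factor eIF3, had the smallest p of the list, with a log2 fold change of 0.20 ± 0.075 (SE; limma adjusted p = 0.548). Of 25 other initiation factors, 20 had a lower mean on TAT-2 arrays, the median was -0.043, and 1 was called lower with the block. This was EIF5A, which helps the ribosome past stalling sequences, with 3138, 2521 and 2045 on TAT-2 arrays, against 4017, 3345 and 2679 on vector arrays. TAT-2 was the lower within each number, and the log2 fold change was -0.38 ± 0.18 (SE; limma adjusted p = 0.674, and 0.00552 with the block).

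Of 17 genes of RNA polymerase I and ribosomal DNA transcription, 2 were called higher with the block and none lower. NOLC1, a nucleolar phosphoprotein, had a log2 fold change of 0.39, and POLR1H, a polymerase I subunit, one of 0.31 (limma adjusted p with block = 0.00626 and 0.0258). Of 30 genes of small nucleolar ribonucleoproteins and pre-ribosomal RNA processing, 1 was called higher with the block. This was UTP3, a component of the small-subunit processome, with 583, 657 and 673 on TAT-2 arrays, against 389, 455 and 399 on vector arrays. Its groups did not overlap, and the log2 fold change was 0.60 ± 0.11 (SE; limma adjusted p = 0.120, and 0.000978 with the block). Of 20 genes of large-subunit assembly and export, 1 was called lower with the block. MRTO4, which holds the place of the stalk protein RPLP0 on the maturing subunit, gave 452, 467 and 509 on TAT-2 arrays, against 593, 699 and 648 on vector arrays. These did not overlap either, and the log2 fold change was -0.43 ± 0.11 (SE; limma adjusted p = 0.266, and 0.00681 with the block).

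None of 10 chaperones and importers of ribosomal proteins was called in either fit, with 9 higher and 1 lower. IPO7, an importin, had a log2 fold change of 0.18 and BCCIP, a chaperone of RPL23, one of 0.16. None of 17 genes of mTORC1, the S6 kinases and LARP1 was called, with RRAGA, a Rag GTPase, at 0.24 and EIF4EBP2, an eIF4E-binding protein, at 0.27. None of 9 genes of the MYC network was called, MYC itself having a log2 fold change of 0.21 ± 0.11 and MXI1, an antagonist, one of 0.24 ± 0.25 (SE). None of 8 genes of nucleolar stress and p53 was called, with SESN2 at -0.42 ± 0.31 and GDF15 at -0.48 ± 0.27 (SE). Mitochondrial ribosomal proteins belong to a separate ribosome and served as a comparison. Of 77, with a median of 0.012, 4 were called higher and 1 lower with the block. Those called include MRPL40, MRPL43 and MRPS16, with log2 fold changes of 0.34, 0.31 and 0.30, and MRPL49, with one of -0.31.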

How the data were processed

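The deposited values are intensities, 1 linear MAS5 signal per probe set and array, scaled by the authors so that the mean between percentiles 2 and 98 was about 100 (99.98 on each array). The submitters' processing notes name MAS5 and give no version. Gene names came from the platform annotation, updated to the RefSeq table of GRCh38.p14.

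Signals were transformed as log2(signal + 16), which understates differences of dim probe sets. The 27307 non-control probe sets whose mean reached the median (log2 4.96, a signal of 15.2) entered a linear model (lmFit, then eBayes with an intensity trend, limma 3.58.1, R 4.3.3). The fit compared TAT-2 with vector, with group as the only term, and p was adjusted by Benjamini-Hochberg over all of them at 0.05. The script was tested on simulated data. Summaries were made in Python 3.11.15.

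Arrays that share a number deviated from their group means together (r = 0.64, 0.39 and 0.25, each over 0.1), so the fit with the number as a block is printed where it bears on a call. What a number stands for is not given in the labels. Precision is limited by having 3 arrays per group.

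The members, gene lists and tests were chosen with earlier results of these data known. Values are given for the 8 members of largest positive and 8 of largest negative log2 fold change, the paralogs, RPLP1, RPLP2, RPS6 and RPL11. Also given are values for the members of highest and lowest mean, and for up to 4 genes per related list called with the replicate block. Where the block called none, the 2 genes of smallest p in the block fit are given. Genes described by role, RPS18, RPS27, RPL36 and the further probe sets were named after their values were seen. Alternatives were the pseudocount, the filter, the scaling, the variance trend, the block, replicate 1 as a batch, the rule for several probe sets, and leaving out arrays. Leaving out members below log2 11, and reading probe sets of several symbols, were added after seeing the data.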

Additional observations from a re-analysis of the deposited data

How the results depend on the processing

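Over 24 alternative settings, and with members below log2 11 left out (added after seeing the data), the number of called members differed from 0 in 2. Quantile normalisation with the replicate block called 1 member higher, RPL18 (log2 fold change 0.17, limma adjusted p = 0.0253), and 2 lower, RPL11 (-0.15, 0.0202) and RPS21 (-0.17, 0.0199). The same setting called 499 of the 12151 tested genes higher and 468 lower. Leaving out arrays gave from 0 to 4 members called lower and 0 higher. The 4 came from leaving out replicate 3 of both groups with the block, with 2 arrays per group left: RPL11, RPL22, RPL24 and RPS21, of log2 fold changes -0.24, -0.23, -0.19 and -0.30. The share of all genes called in that setting is not given here, and the cause was not tested. The replicate block alone called 0 members, while over all genes it called 425 higher and 421 lower, against 2 and 5 without it. Over all settings those counts ran from 0 to 499 higher and from 0 to 468 lower. The median of the members stayed between -0.070 and 0.048, with the opposite sign in 5 of 25 alternatives, each a move of less than the SD of 0.11 between replicate numbers. Without probe sets ending in _x_at or _s_at 29 members were left, RPS21 then reading -0.52, RPL22 -0.26, RPL31 0.26 and RPS27L -0.047. Averaging all probe sets of a gene, RPS21 read -0.36, RPL31 0.22, RPS27L 0.096 and RPL18 0.041, none called. Dim members such as RPL36A, RPLP2 and RPL10L lie near background, which limits what their values can show.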
